A study of Mus musculus with 6 samples.

Results

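The genes described here encode the subunits of potassium, sodium and calcium channels. They were all genes whose symbol begins with *Kcn* (potassium channels) or *Cacn* (calcium channels) or has the form *Scn*, a number and the letter a or b (sodium channels). The rule matched 138 of the 22911 genes named by a probe on the array, and each had at least 1 probe: 98 potassium, 14 sodium and 26 calcium channel genes. By role, 97 encode pore-forming subunits, 37 encode auxiliary subunits or regulators, and 4 are non-coding transcripts at a channel gene. RNA was compared between 3 WT samples and 3 IG27 samples, each hybridized to its own single-color Agilent mouse array (all on 1 slide), after 2 days of culture in the same medium. WT cells were OS3 glial cells, which come from mouse brain (male C3H per the labels, newborn C3H/HeN per the methods) and were immortalized with SV40, and carried the empty vector. IG27 cells were OS3 cells transfected with a plasmid for H3f3a-K27M, a histone H3.3 in which lysine 27 is replaced by methionine as in diffuse midline gliomas, and then kept under drug selection. Each line was sampled 3 times, so the p-values measure the spread between samples of a line. The mutation cannot be told apart from other differences between the selected lines, clonal ones included. Whether fewer cells of a type carried an RNA or each cell held less of it cannot be told apart in these samples either.

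Ion channels are membrane proteins that let chosen ions through. Potassium channels set the resting potential and end electrical signals, sodium channels start action potentials, and calcium channels turn depolarization into calcium entry. Pores are built from one or several pore-forming subunits, and auxiliary subunits control how many pores reach the membrane and how fast they open and close. Glial cells are known for a large resting potassium conductance carried by inward rectifiers and leak channels, and precursor cells of the oligodendrocyte lineage also carry voltage-gated channels.

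Values are log2 of the processed signal minus the 75th percentile of that array, so 0 is the level below which 75 percent of the probes of an array lie, and levels of different probes are not compared. A gene was tested with limma if the flag for a signal well above background was set for its probe in all complete arrays of 1 group or of both, and called at an adjusted p under 0.05 (Benjamini-Hochberg over 14898 tested genes). The arrays correlated at 0.994 to 0.997 within a group and at 0.902 to 0.905 between groups, 58.8 to 61.2% of probes were well above background on the 5 complete arrays, and the number of arrays limits the precision. The flags are lacking for IG27 replicate 2, whose values came from the deposited value table. Of the cell type markers, 8 of 10 of the astrocyte and radial glia list were well above background in all WT samples and 9 in both complete IG27 arrays, and 7 and 8 of the 8 of the oligodendrocyte lineage list. *Slc1a3* and *Fabp7* of the first list were not well above background in any WT sample. The neuronal markers *Rbfox3*, *Syt1* and *Nefl*, the endothelial markers *Cdh5*, *Cldn5* and *Tek* and the muscle markers *Myod1*, *Myog* and *Ckm* were not well above background on any complete array.

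Promoters are shown for 4 genes whose results recur below: the largest rise and the largest fall among the channel genes, and a pair of adjacent leak channel genes that moved in opposite directions. The sequences are from RefSeq (build GRCm38.p6), 250 bases before to 50 after the start of the gene, on the strand of the gene, and capitals mark CG dinucleotides, the site of DNA methylation. *Kcne1l*, which was higher in IG27 cells, has 12 of them at chrX:142306149-142306448 on the minus strand. *Kcnd3*, which was lower, has 25 at chr3:105451640-105451939 on the plus strand. *Kcnk5*, which was higher, has 26 at chr14:20181733-20182032 on the minus strand, and its neighbor *Kcnk16*, which was lower, has 2 at chr14:20269220-20269519 on the minus strand.
*Kcne1l*: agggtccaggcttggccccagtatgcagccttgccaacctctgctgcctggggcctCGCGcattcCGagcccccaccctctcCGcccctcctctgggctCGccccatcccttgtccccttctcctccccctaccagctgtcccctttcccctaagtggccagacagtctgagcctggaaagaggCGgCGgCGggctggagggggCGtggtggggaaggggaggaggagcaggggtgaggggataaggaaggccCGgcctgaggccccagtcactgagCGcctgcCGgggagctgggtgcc
*Kcnd3*: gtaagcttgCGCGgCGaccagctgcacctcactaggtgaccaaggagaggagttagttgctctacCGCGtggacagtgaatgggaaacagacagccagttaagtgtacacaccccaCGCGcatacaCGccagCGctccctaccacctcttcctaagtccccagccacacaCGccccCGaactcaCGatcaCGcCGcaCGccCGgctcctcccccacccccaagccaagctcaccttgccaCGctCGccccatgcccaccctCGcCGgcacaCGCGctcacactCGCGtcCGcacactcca
*Kcnk5*: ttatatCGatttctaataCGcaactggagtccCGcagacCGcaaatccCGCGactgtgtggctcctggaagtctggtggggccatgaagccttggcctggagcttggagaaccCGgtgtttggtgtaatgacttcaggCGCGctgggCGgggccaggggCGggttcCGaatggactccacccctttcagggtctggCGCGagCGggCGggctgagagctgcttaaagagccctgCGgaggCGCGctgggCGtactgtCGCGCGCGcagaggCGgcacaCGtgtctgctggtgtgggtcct
*Kcnk16*: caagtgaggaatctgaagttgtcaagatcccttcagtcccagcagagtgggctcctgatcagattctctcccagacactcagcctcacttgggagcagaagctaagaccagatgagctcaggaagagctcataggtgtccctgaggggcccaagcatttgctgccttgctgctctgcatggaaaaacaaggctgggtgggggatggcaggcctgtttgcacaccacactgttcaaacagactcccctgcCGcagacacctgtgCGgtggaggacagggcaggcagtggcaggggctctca

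Of the 138 channel genes, 72 were tested and 50 were called, 25 higher and 25 lower in IG27 cells, which is 69.4% of those tested. Over all tested genes 70.5% were called, 30.5% higher and 40% lower, so the share of channel genes called was near that of the whole array. In size, 14 of the 72 tested channel genes were called and at least 2-fold higher and 16 at least 2-fold lower. Over all tested genes these were 1706 and 1739 of 14898 (11.5% and 11.7%), a smaller share in both directions. The difference was not tested. The median log2 fold change was 0.01 over the tested channel genes and -0.07 over all genes. WT and IG27 values did not overlap in 53 of the 72 tested channel genes, against 75.7% of all tested genes. With 3 samples a group, an exact permutation test of 1 gene cannot go below p = 0.1, so single genes rest on the fit across all genes. Because a gene that is high in 1 group only passes the filter through that group, the 51 channel genes above background in both groups were also counted alone: 32 were called, 17 higher and 15 lower, against 70.7% of all such genes (29.2% higher and 41.6% lower). WT replicates 1 and 3 were in another row of the slide than all other samples, and with the row as a block 42 channel genes were called.

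**Figure D1:**
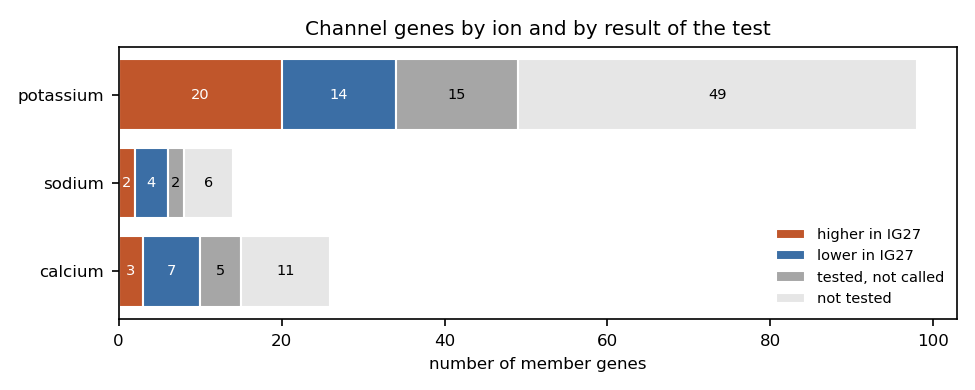
Number of channel genes (x axis) of each ion family (y axis) that were called higher or lower in IG27 cells, tested and not called, or not tested. Potassium channel genes split 20 higher to 14 lower, sodium channel genes 2 to 4 and calcium channel genes 3 to 7, and 66 of the 138 genes were not tested.

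By ion, potassium channel genes were called higher in 20 and lower in 14 of 49 tested, with a median log2 fold change of 0.11. Sodium channel genes were higher in 2 and lower in 4 of 8 tested (median -0.58), and calcium channel genes higher in 3 and lower in 7 of 15 (median -0.17). Pore subunits were higher in 15 and lower in 18 of 51 tested, and auxiliary subunits higher in 8 and lower in 6 of 18. Differences between these groups were not tested. Over all tested genes 30.5% were called higher and 40% lower, and the counts by group here and below stand beside those shares. The 66 genes that were not tested include 55 without any complete array well above background, among them *Kcnj2* and *Kcnj16*, both inward rectifiers, and *Kcnma1*, the pore of the large-conductance calcium-activated (BK) channel.

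**Figure D2:**
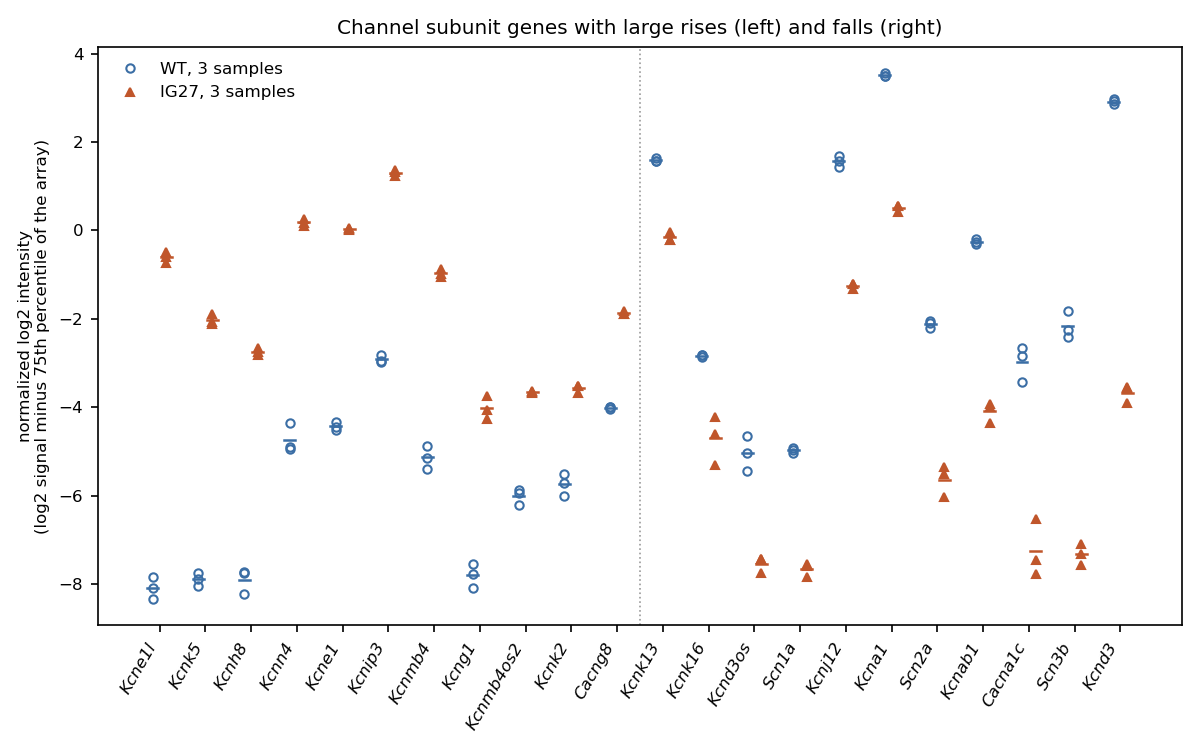
Normalized log2 intensity (y axis) of 22 of the channel genes with the largest rises and falls, with the 3 WT samples as open circles, the 3 IG27 samples as triangles and the group means as short lines. The groups did not overlap in any of these genes, which was a condition for their choice, and heights of different genes are not comparable.

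Among voltage-gated potassium channel pores, 7 of 21 tested genes rose and 6 fell. The largest fall of all channel genes was that of *Kcnd3*, a Kv4 pore that carries the fast transient A-type current. Its values were 2.97, 2.86 and 2.92 in WT replicates 1 to 3 and -3.55, -3.57 and -3.90 in IG27 replicates 1 to 3. Every WT sample lay far above every IG27 sample, and the fall was 96.3-fold (log2 fold change -6.59, SE 0.11, adjusted p = 1.29e-07). A dimmer probe of *Kcnd3* was also called lower, but was not well above background on either complete IG27 array, so its size is not given. *Kcnd3os*, a non-coding transcript whose annotation overlaps *Kcnd3*, was well above background in the WT samples only and was at least 1.23-fold lower in IG27 cells (adjusted p = 8.60e-05). The other Kv4 pore tested, *Kcnd1*, was not called (log2 fold change -0.06, SE 0.11).

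*Kcng1*, a silent subunit that forms channels only together with other voltage-gated pores, was not well above background in any WT sample (-7.77, -7.54 and -8.09). It had IG27 values of -4.26, -4.07 and -3.75 and was at least 3.35-fold higher (adjusted p = 7.11e-06). Such lower bounds set the mean of the bright group against the lowest signal of a probe well above background, and for IG27 cells that floor comes from the 2 complete arrays. They hold for the processed signal only. For most channel genes with such a bound, an alternative analysis gave an estimate below it. Another background correction (normexp) did so for *Kcng1* and others, as described in the section on processing. Of the other silent subunits, *Kcns1* was higher (log2 fold change 0.65, SE 0.20, adjusted p = 2.75e-02), a call kept in only 7 of 17 alternative analyses, and *Kcnv2* and *Kcng2* were at 0.01 and 0.00 and were not called.

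In the Kv1 (Shaker) class all 4 tested pores were called, 2 in each direction. *Kcna1*, a low-threshold delayed rectifier, gave 3.51, 3.50 and 3.56 in WT and 0.54, 0.56 and 0.42 in IG27 cells, which is an 8.07-fold fall (adjusted p = 1.84e-07). *Kcna6*, its neighbor on chromosome 6, fell 2.08-fold, and both of its probes were called. *Kcnab1*, a cytoplasmic beta subunit that binds Kv1 pores and speeds their inactivation, was lower as well, at -0.30, -0.25 and -0.20 in WT and -4.35, -3.99 and -3.93 in IG27 cells (14.4-fold, adjusted p = 1.08e-06). *Kcna3*, the Kv1 pore known from lymphocytes and microglia, did not rise well above background on any WT array and was at least 1.79-fold higher in IG27 cells (adjusted p = 4.05e-05). *Kcna7* was higher by a log2 fold change of 0.17, a call that was lost in 11 of 17 alternative analyses.

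Among the Kv3 pores, which serve fast firing, *Kcnc1* had a log2 fold change of 0.90 (SE 0.35) and missed the threshold (adjusted p = 5.67e-02), with 1 of 3 WT arrays well above background. Its WT values ran from -6.50 to -5.05 against -4.87 to -4.78 in IG27 cells. In the ether-a-go-go class (Kv10-12), 2 of 6 tested pores were higher and 2 lower. *Kcnh8*, a slowly gating member, was not well above background in any WT sample, gave -2.67, -2.76 and -2.81 in IG27 cells, a rise of at least 8.14-fold (adjusted p = 7.31e-07). *Kcnh2*, the pore of the cardiac rapid delayed rectifier, was at a log2 fold change of 0.02 and was not called, although its second probe was called at -0.26. *Kcnh3* was lower by a log2 fold change of -0.88.

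Next, the auxiliary subunits of these channels were examined. *Kcnip3* encodes a calcium-binding KChIP that joins Kv4 pores and is also known as the transcriptional repressor DREAM. It gave -2.98, -2.82 and -2.95 in WT and 1.33, 1.36 and 1.22 in IG27 cells, an 18.7-fold rise (log2 fold change 4.22, SE 0.07, adjusted p = 1.29e-07), and its second probe, well above background in 2 of 3 WT samples, was also called higher. The Kv4 partner was higher in the same samples in which the Kv4 pore *Kcnd3* was lower. *Kcnip1*, the other KChIP tested, was not called (0.11, SE 0.16).

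Both tested genes of the KCNE class, small single-pass proteins that slow or silence voltage-gated potassium pores, were higher in IG27 cells. *Kcne1l*, now named *Kcne5* and located on the X chromosome, had the largest rise of all channel genes. It was not well above background in any WT sample (-8.10, -7.85 and -8.35), gave -0.48, -0.73 and -0.61 in IG27 cells, a rise of at least 35.8-fold (adjusted p = 1.71e-07). *Kcne1*, the subunit that forms the slow cardiac delayed rectifier with the *Kcnq1* pore, gave -4.51, -4.32 and -4.45 in WT and 0.05, 0.01 and 0.03 in IG27 cells. All IG27 samples lay above all WT samples, and the rise was 22.0-fold (log2 fold change 4.46, SE 0.06, adjusted p = 9.19e-08). *Kcnq1* itself, the 1 Kv7 pore of 5 on the array that was tested, was at -0.25 (SE 0.19) and was not called. *Kcnq1ot1*, the long non-coding RNA transcribed within *Kcnq1*, was higher by 0.42 (SE 0.10), with 2 of the 4 probes that passed the filter called. The call was lost with the slide row as a block. Each probe was read as the transcript of its accession, and the sequences of the probes were not used, so overlap between a probe and the opposite transcript was not examined.

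**Figure D3:**
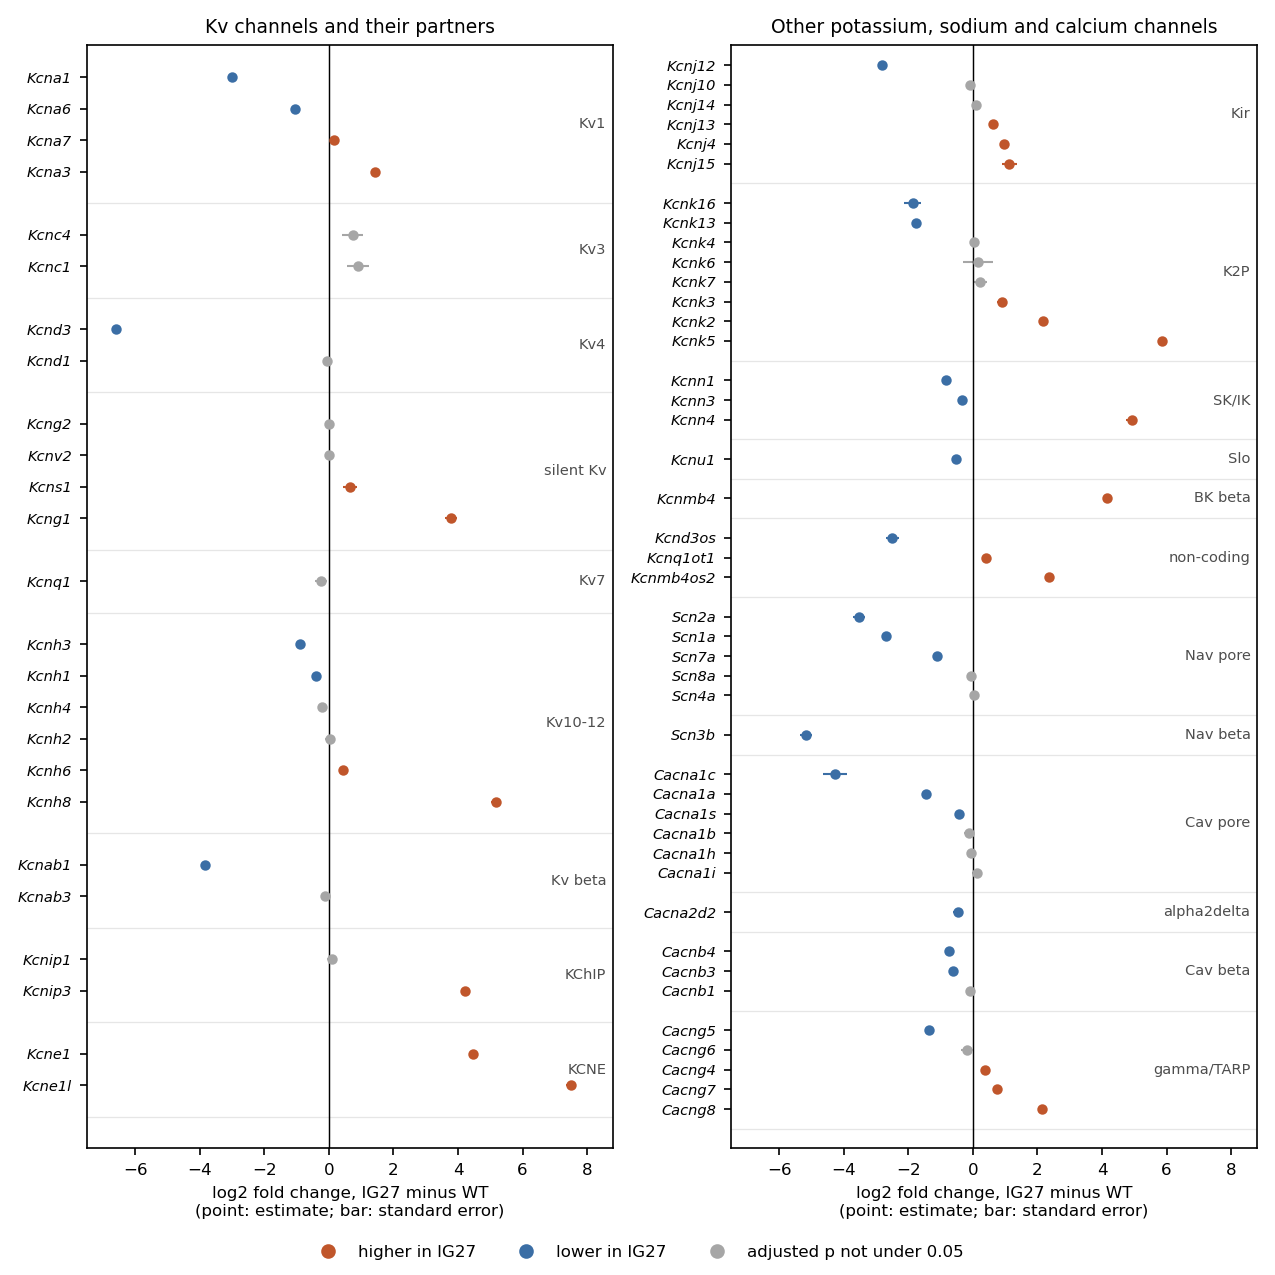
Log2 fold change of IG27 over WT cells (x axis) with its standard error for 68 of the 72 tested channel genes (y axis), grouped by channel class and colored by the result of the test. The Kv1, Kv10-12 and SK/IK classes, among others, hold calls in both directions, and for the genes without a signal well above background in 1 group the point is the fitted value and not a bound.

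Inward rectifiers (Kir), which pass potassium inward more easily than outward, were higher in 3 and lower in 1 of 6 tested genes. *Kcnj10*, the Kir channel that carries most of the resting potassium conductance of astrocytes, gave 4.24, 4.22 and 4.31 in WT and 4.17, 4.20 and 4.15 in IG27 cells. The groups did not overlap, but the log2 fold change was only -0.08 (95% confidence interval -0.20 to 0.03) and was not called (adjusted p = 0.170). *Kcnj12*, a strong rectifier, gave 1.69, 1.45 and 1.56 in WT and -1.21, -1.33 and -1.22 in IG27 cells. The fall was 7.05-fold (adjusted p = 7.36e-07), and its second probe also showed it (log2 fold change -2.92). *Kcnj4*, *Kcnj13* and *Kcnj15*, further Kir pores, were higher by log2 fold changes of 0.98, 0.62 and 1.13, the last not called with the slide row as a block.

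Leak channels of the K2P class, which stay open at rest, were called in 5 of 8 tested genes. *Kcnk5*, an acid-sensitive leak channel, was not well above background in any WT sample, gave -2.11, -2.06 and -1.89 in IG27 cells, a rise of at least 13.4-fold (adjusted p = 1.29e-07). *Kcnk2*, a leak channel opened by stretch and lipids (TREK), gave -5.50, -6.01 and -5.72 in WT and -3.52, -3.53 and -3.67 in IG27 cells, which is 2.17 higher on the log2 scale (SE 0.13, adjusted p = 1.93e-05). Only 1 of 3 WT arrays was well above background for it, and with normexp background correction the estimate was 0.77. *Kcnk3*, another acid-sensitive member, rose 1.85-fold. *Kcnk13*, a member known from microglia, fell from 1.57, 1.58 and 1.65 to -0.04, -0.21 and -0.22, which is 3.38-fold (adjusted p = 2.48e-06). *Kcnk16* was lower (log2 fold change -1.87, SE 0.26, adjusted p = 8.54e-04), with IG27 values between -5.30 and -4.22, 1 of 2 complete IG27 arrays well above background, and -1.06 with normexp. The microglial markers were well above background in all WT samples in 3 of 5 and on both complete IG27 arrays in 4 of 5, with *Cx3cr1* on none. *Csf1r* and *Tmem119* were lower (log2 fold changes -1.57 and -0.76) and *Aif1* and *P2ry12* higher (1.66 and 0.49). The sum of the linear signals of the 5 markers, in which bright probes weigh most, was 4.93 to 5.30 in WT and 2.62 to 2.93 in IG27 cells. The part of these markers in the *Kcna3* and *Kcnk13* results was not tested.

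Calcium-activated potassium channels showed a rise of 1 pore and of 1 auxiliary subunit. *Kcnn4*, the intermediate-conductance pore, gave -4.36, -4.95 and -4.91 in WT and 0.27, 0.16 and 0.11 in IG27 cells. It was 30.3-fold higher (log2 fold change 4.92, SE 0.16, adjusted p = 1.60e-06), and its other 2 probes, not well above background in any WT sample, were also called higher. The small-conductance pores *Kcnn1* and *Kcnn3* were lower, *Kcnn1* 1.77-fold. A dimmer *Kcnn1* probe, well above background on all complete arrays, was not called (log2 fold change -0.20). *Kcnn3* was not well above background on the complete IG27 arrays, so no fold is given (adjusted p = 7.63e-03), and its call was lost in 2 of 16 alternative analyses. *Kcnmb4*, a beta subunit of BK channels, gave -5.14, -5.39 and -4.87 in WT and -0.88, -1.06 and -0.98 in IG27 cells. The rise was 17.9-fold (adjusted p = 1.40e-06), or 4.16 on the log2 scale, whereas its second probe rose by a log2 fold change of 1.33. *Kcnmb4os2*, a non-coding transcript whose annotation overlaps *Kcnmb4*, was at least 4.25-fold higher (adjusted p = 2.95e-06). None of the probes of the BK pore *Kcnma1* was well above background on any complete array. *Kcnu1*, a pore listed here by its Slo class and not for calcium activation, was lower by a log2 fold change of -0.51. That call was lost with the slide row as a block.

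Among the sodium channel pores, the brain pores *Scn2a* and *Scn1a*, which carry action potentials in neurons, fell. *Scn2a* gave -2.21, -2.09 and -2.04 in WT and -5.51, -5.36 and -6.04 in IG27 cells, a fall of at least 9.41-fold (adjusted p = 8.62e-06). All 3 of its probes that passed the filter were called lower. *Scn1a* gave -5.03, -4.97 and -4.91 in WT, was not well above background on the complete IG27 arrays, and was at least 1.30-fold lower (adjusted p = 1.62e-06). *Scn7a*, a sodium-sensing relative found in glia, fell 2.15-fold. *Scn1a*, *Scn2a* and *Scn7a* lie in 1 cluster on chromosome 2, whose other members *Scn3a* and *Scn9a* were not tested.

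*Scn3b*, a beta subunit that helps sodium pores reach the membrane, gave -2.42, -2.26 and -1.82 in WT and -7.32, -7.58 and -7.10 in IG27 cells. It was not well above background on the complete IG27 arrays and was at least 9.07-fold lower (adjusted p = 2.21e-06). For *Scn8a*, a further neuronal pore, the result depended on the probe. The brightest of its 4 probes, the one used for the gene, gave 2.29, 2.16 and 2.11 in WT and 2.13, 2.10 and 2.17 in IG27 cells and was not called, while the other 3 were called lower by log2 fold changes of -1.06, -1.01 and -1.67.

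Among the markers of neurons, 2 were called lower in IG27 cells and the others were not called or not tested. Of 6 neuronal markers, 3 were well above background in all WT samples and 2 on both complete IG27 arrays, *Tubb3* and *Stmn2* were lower (log2 fold changes -2.63 and -4.69), *Snap25* was not called (-0.11), and *Rbfox3*, *Syt1* and *Nefl* were not well above background in either group. The sum of the linear signals of the 6 markers, in which bright probes weigh most, was 17.6 to 20.0 in WT and 6.69 to 7.43 in IG27 cells. Its part in the sodium channel results was not tested.

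Calcium channel pores were lower in 3 of 6 tested genes and higher in 0, also at an unadjusted p under 0.05 in limma. Over all tested genes 40% were called lower and 30.5% higher, and the difference was not tested. *Cacna1c*, the pore of the cardiac and neuronal L-type channel, gave -3.44, -2.85 and -2.66 in WT and -7.46, -7.77 and -6.53 in IG27 cells. It was not well above background on the complete IG27 arrays and was at least 5.15-fold lower (adjusted p = 8.30e-05). The 2 of its probes that passed the filter were called lower. *Cacna1a*, the P/Q-type pore that drives transmitter release, gave 1.37, 1.28 and 1.42 in WT and 0.02, -0.28 and -0.06 in IG27 cells. The fall was 2.75-fold (adjusted p = 2.22e-05). All 3 of its probes were called lower, by log2 fold changes of -1.46, -1.55 and -0.56. *Cacna1s*, the skeletal muscle L-type pore, was lower by a log2 fold change of -0.42, with 1 of 2 complete IG27 arrays well above background, and its call was lost in 2 of 16 alternative analyses. The T-type pores *Cacna1h* and *Cacna1i*, which open at low voltage, were at -0.07 and 0.13 and were not called, although 1 of the 3 *Cacna1h* probes was called lower (-0.37).

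The auxiliary calcium channel subunits that carry pores to the membrane were lower in 3 of 4 tested genes and higher in 0, against 40% and 30.5% of all tested genes. The cytoplasmic beta subunit *Cacnb3* gave 2.87, 2.75 and 2.87 in WT and 2.13, 2.17 and 2.30 in IG27 cells, a 1.55-fold fall (adjusted p = 2.21e-04). *Cacnb4*, a beta subunit of neurons, fell 1.67-fold, and *Cacna2d2*, an alpha2delta subunit, 1.38-fold, a call that was lost in 5 of 17 alternative analyses. The gamma subunit family, most of whose members tested here are TARPs that accompany AMPA-type glutamate receptors, was higher in 3 and lower in 1 of 5 tested genes. *Cacng8* gave -3.99, -3.99 and -4.05 in WT and -1.89, -1.90 and -1.82 in IG27 cells, a 4.42-fold rise (adjusted p = 3.50e-07). Its neighbor *Cacng7* on chromosome 7 rose 1.69-fold, and *Cacng4* was higher by a log2 fold change of 0.39, a call kept in 9 of 17 alternative analyses and in neither block, whereas *Cacng5*, which adjoins *Cacng4* on chromosome 11, fell 2.59-fold.

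**Figure D4:**
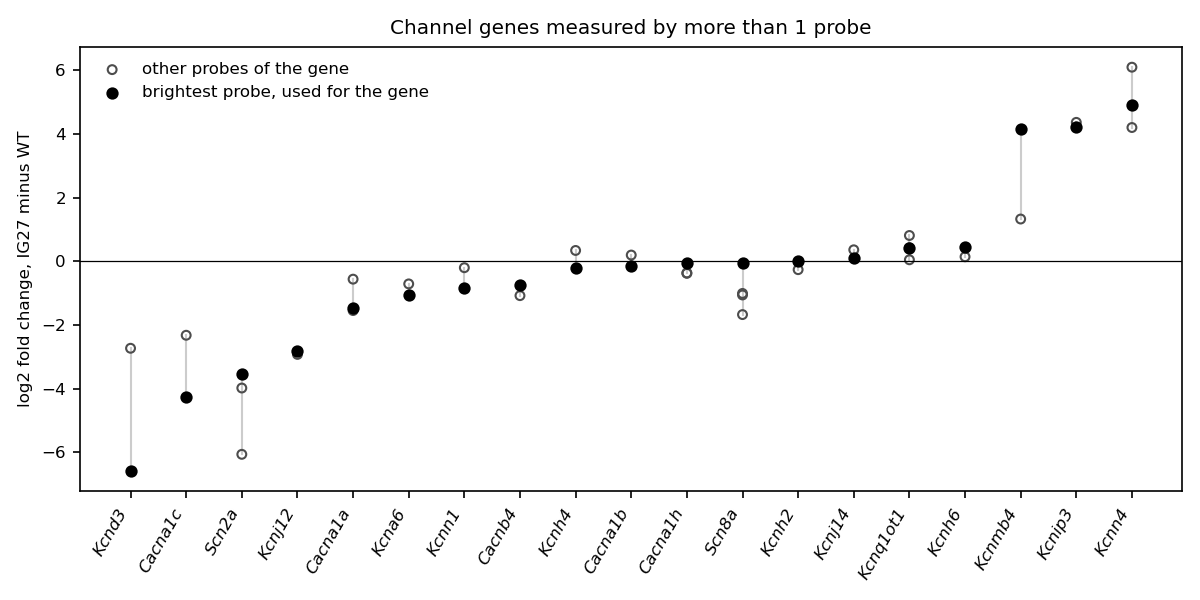
Log2 fold change of IG27 over WT cells (y axis) of every probe that passed the filter, for 19 of the 21 channel genes (x axis) with more than 1 such probe. Filled points are the brightest probe, which stands for the gene, and the long lines at *Scn8a* and *Kcnmb4* mark genes whose probes, well above background in both groups, gave different sizes. Those at *Kcnd3* and *Scn2a* include probes not well above background in IG27 cells, whose points are fitted values.

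Probes of the same gene were compared for 21 channel genes with more than 1 probe that passed the filter, and only such probes were counted. In 18 of them all probes had the same sign, in 11 all probes were called in 1 direction, and in 0 were probes called in both directions (limma, fitted on all probes). The 3 genes of mixed sign were *Cacna1b*, an N-type pore, and *Kcnh2* and *Kcnh4*, ether-a-go-go pores, whose estimates ran from -0.26 to 0.34.

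Other proteins that bind or regulate these channels were counted from a list of 44 genes. Of 29 tested, 10 rose and 13 fell in IG27 cells (median log2 fold change -0.07), against 30.5% and 40% of all tested genes. The RGK proteins, small GTP-binding proteins that inhibit voltage-gated calcium channels, were all called and moved in different directions. *Rem1* gave -1.47, -1.53 and -1.42 in WT, was not well above background on the complete IG27 arrays, and was at least 14.7-fold lower (adjusted p = 2.27e-07). *Gem*, in contrast, gave -4.02, -4.46 and -4.06 in WT and 0.07, 0.07 and 0.01 in IG27 cells (log2 fold change 4.23, SE 0.12, adjusted p = 8.83e-07), and *Rem2* and *Rrad*, each well above background in 2 of 3 WT samples, were higher by 2.23 and 1.44.

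*Stac2*, an adaptor that slows the inactivation of calcium channels, was at least 8.64-fold higher, *Rims2*, which ties calcium channels to release sites, at least 8.14-fold lower, and the membrane anchor *Ank2* lower by a log2 fold change of -1.36. *Akap7*, a kinase anchor of L-type channels, was higher by 3.09 (SE 0.85, adjusted p = 1.72e-02), with WT values of -0.46, 3.13 and 1.65. That estimate fell to 2.14 without WT replicate 1, rose to 3.94 without WT replicate 2, and was not called without IG27 replicate 1 (adjusted p = 5.41e-02). *Rest*, the repressor of neuronal genes that include sodium channels, was not called (-0.07, SE 0.07).

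Genes that move the same ions by other means were counted from a list of 61 genes, of which 54 were tested, 19 higher and 22 lower (median -0.07). The shares over all tested genes were 30.5% higher and 40% lower. *Slc12a7*, a potassium-chloride cotransporter, did not pass background on any WT array and was at least 52.9-fold higher in IG27 cells. The calcium pumps *Atp2a3* of the endoplasmic reticulum and *Atp2b4* of the plasma membrane were higher, by a log2 fold change of 3.37 and at least 2.12-fold. The sodium-calcium exchanger *Slc8a1* was at least 3.83-fold lower, the neuronal cotransporter *Slc12a5* lower by -1.89, and the pacemaker channel *Hcn3* at least 1.93-fold lower.

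Position and promoter sequence were then described for the channel genes. The genes formed 22 neighboring pairs with at most 2 protein-coding genes between them, and both were tested in 5. Of these, 2 pairs were called in the same direction, *Kcna1* with *Kcna6* and *Cacng7* with *Cacng8*, and 2 in opposite directions, *Kcnk5* with *Kcnk16* and *Cacng4* with *Cacng5*, the last resting on the *Cacng4* call kept in 9 of 17 alternatives. A RefSeq promoter was found for 102 of the 138 genes. The median number of CG dinucleotides in the 300 bases was 15.5 over these genes, 8 over all 27025 genes with a promoter and 21 over all tested genes. It was 20 in the 18 called higher, 11 in the 19 called lower, 20 in the 14 tested and not called and 11 in the 51 not tested. The motif TATAAA on either strand was in 3.92% of the counted channel promoters, in 7.96% of those of all tested genes and in 13.8% of those of all genes with a promoter. None of the 4 promoters printed above holds it.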

How the data were processed

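RNA was measured in 3 WT and 3 IG27 samples, 1 Cy3 array each. The deposited processed signal is an intensity on a linear scale, made by the authors with Agilent Feature Extraction (version 10.7.3.1 per the file headers, 9.1 per the labels), with background steps not given in the sources used here. The scanner output of IG27 replicate 2 stops early, and its values came from the deposited value table, in which WT replicates 2 and 3 are exchanged (scanner labels were followed).

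Outlier spots were left out. Of 56605 probes, 32994 were named through RefSeq accessions (table of GRCm38.p6), and the brightest probe stood for a gene. Groups were compared with limma (version 3.58.1 in R 4.3.3, two-sided, without a block). No probe was saturated on the 5 complete arrays. The steps were tested on simulated data. Alternatives were other scalings, filters, probe rules, blocks and each array left out, with normexp on median signals because mean signals were not in the files.

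Named genes were the 12 largest rises and falls among called members whose groups did not overlap, the largest change of each class, and the 3 largest in each direction of both lists. Others were named after their values were seen. Results of some of these genes are not reported here. The members and lists were chosen with earlier results of these data known. Replicate numbers did not pair the samples (same-number correlations 0.01, 0.04 and 0.08).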

Additional observations from a re-analysis of the deposited data

How the results depend on the processing

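The 50 called channel genes kept their direction in each of 17 alternatives, and 36 were called in all in which they were tested. With a stricter filter (well above background in both groups) 51 were tested and 32 called, 15 of them lower, with 22 potassium and 2 sodium channel genes called, since fewer genes were tested. The replicate block called 47 and kept 46 of the 50 calls, and the slide row as a block, which compares IG27 cells with WT replicate 2, kept 40. Leaving out 1 array at a time called 46 to 48. Quantile normalization called 22 higher and 29 lower. Without a filter the median of all genes was 0.12, and *Scn1a*, read from another probe, was not called (-0.43). Normexp was run with an offset of 50 added to the signals, which by itself shrinks the fold changes of dim probes. It lowered the log2 fold changes of dim genes, for example *Kcne1l* to 3.82, *Kcng1* to 0.89, *Scn3b* to -2.12 and *Cacna1c* to -1.35. Averaging the probes of a gene put *Kcnd3* at -4.66 and *Kcnmb4* at 2.74. *Kcnq1* was called with quantile normalization (-0.53) and with the slide row (-0.63), and *Kcnc1* in 6 of 16 alternatives. The normexp estimates of *Kcne1l*, *Kcng1*, *Scn3b* and *Cacna1c* were smaller than the lower bounds given above. For *Kcnk5*, *Kcnh8*, *Kcna3*, *Kcnmb4os2* and *Scn2a* the smallest changes among the alternatives were 2.35, 1.65, 0.32, 0.88 and -1.87 on the log2 scale. These too were smaller than the bounds of those genes, so the bounds hold for the processed signal only. Signal near background limits the lower bounds.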

Other observations

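Among other carriers and regulators of these ions, chosen after their values were seen, *Atp1b1*, a beta subunit of the sodium-potassium pump, was higher in IG27 cells by a log2 fold change of 2.09 (SE 0.11, adjusted p = 8.50e-06, limma). *Hvcn1*, a voltage-gated proton channel, was higher by 3.04 (SE 0.08, adjusted p = 6.46e-07) and *Trpm3*, a heat-activated cation channel, by 2.59 (SE 0.27, adjusted p = 2.05e-04). The store-operated calcium entry genes were split: the sensors *Stim1* and *Stim2* were lower by -0.62 and -0.63, and the pores *Orai2* and *Orai3* by -0.97 and -0.22, while the pore *Orai1* was higher by 0.24.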
